A study of Mus musculus with 8 samples.

Results

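The zinc finger genes named Zfp, apart from Zfp609, were examined as sources of circular RNAs (circRNAs) in the mouse heart. A circRNA forms when a splice donor is joined to an acceptor upstream of it, which closes exons into a loop, and the gene it comes from is its host. Members were all circles whose host name begins with Zfp followed by a digit, with no measured value used in the choice. This gave 77 of 6492 hosts (1.19%) and 222 of 27391 circles (0.810%), on 19 chromosomes. The 4 TAC libraries came from hearts of male wild-type mice 8 weeks after transverse aortic constriction, a surgical narrowing of the aorta that loads the left ventricle with pressure. The 4 sham libraries came from male wild-type mice 8 weeks after a sham operation. Mice of both groups were wild type per the labels, and the sources used here do not give their age. Libraries are numbered within a group in accession order, and the numbers pair no TAC mouse with a sham mouse.

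Most Zfp proteins belong to the C2H2 class, in which a pair of cysteines and a pair of histidines fold a short peptide around a zinc ion so that it can contact DNA. Genes of the largest mammalian subgroup also code for a KRAB domain near the start of the protein, which recruits the corepressor KAP1 (Trim28) and silences transposable elements and other targets. Other Zfp proteins have no KRAB domain and act as transcription factors, RNA-binding proteins, mitotic proteins or SUMO ligases. In many KRAB genes the fingers lie in one long last exon, which a circle cannot normally include because it has no downstream splice donor.

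The back-splice junctions of the circles on which the results turn come first, since these junctions are what the assay counted. Each is given 5′ to 3′ on the transcribed strand, with the last 15 bases of the donor exon in lower case and the first 15 bases of the acceptor exon in capitals, from GENCODE M21 transcripts (mm10). The first pair share their donor and differ in their acceptor alone.
Zfp827 exons 6 to 8, chr8:79118175-79136663, plus strand: gagtgtctgctccagCGGAAAGCTACAAGG
Zfp827 exons 5 to 8, chr8:79091833-79136663, plus strand: gagtgtctgctccagCTGCAAACCAGAAGG
Zfp148 exons 2 to 4, chr16:33421321-33434974, plus strand: gcactcaatgtccctGATAGAAGAGAAGAA
Zfp292 exons 2 to 4, chr4:34839332-34839986, minus strand: tggataaagagaaagACACTTCTTGAATAT
Zfp426 exons 5 to 7, chr9:20473028-20476478, minus strand: agatagttttcccagGTCCTTCAGAGGACT
Zfp512 exons 4 to 7, chr5:31466232-31468240, plus strand: aatcataatagtctgGCGCAGGTGAAAAGG

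Values are back-spliced reads divided by a size factor per library, called normalised reads here, and they are not scaled by circle length. The libraries held 33132, 1119, 21074 and 36120 back-spliced reads in TAC replicates 1 to 4 and 40796, 3963, 17890 and 100142 in sham replicates 1 to 4. One read was therefore worth 5.77 normalised reads in TAC replicate 2 and 4.54 in sham replicate 2, against 0.195 to 1.03 in the other libraries. Different circles seen numbered 10786, 567, 7770 and 11550 in TAC replicates 1 to 4 and 9081, 1830, 4980 and 5600 in sham replicates 1 to 4. The median read of hosts outside the family came from a circle of 540, 334, 520 and 498 nt in the TAC libraries and 394, 490, 367 and 351 nt in the sham libraries, so that each shallow library stood apart from its group. Of 12 cardiomyocyte markers, 10 hosted circles, with Tnni3 and Pln at 0, and their summed level was 225 to 691 normalised reads in TAC and 152 to 491 in sham. Markers of 6 other cell types were low beside this. The 5 of 8 fibroblast markers that hosted circles (Postn, Fn1 and Tcf21 at 0) summed to 0 to 1.49 in TAC and 1.66 to 4.54 in sham. The 8 of 8 endothelial markers summed to 5.77 to 49.6 in TAC and 12.9 to 40.9 in sham. The 4 of 8 leukocyte markers (Cd68, Csf1r, Cd3e and Cd79a at 0) summed to 11.5 to 24.2 in TAC and 7.58 to 19.0 in sham. At most 5.20 in any library was found for the 2 of 6 smooth muscle, 1 of 4 adipocyte and 1 of 4 erythroid markers that hosted circles. The part of these markers and of circle length in the differences below was not tested, except where a value with the length trend removed is given. In whole heart tissue, fewer cells of a type and less RNA per cell cannot be told apart.

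Zfp hosts made few different circles each. The median was 1 circle per host (mean 2.88) against 2 (mean 4.24) for the 6415 other hosts, and 39 of 77 Zfp hosts (50.6%) had a single circle, against 34.7% of the others. Zfp638 led with 25 circles, followed by Zfp280d with 14, Zfp827 with 13 and Zfp236 with 11. The table types 211 of the 222 circles as exonic and 11, from 9 hosts, as intronic circles (ciRNA). These ciRNAs were 4.95% of Zfp circles and 4.84% of the other circles. Rarity was common: 124 circles (55.9%) were seen in 1 library, and 95 rested on a single read. The corresponding shares outside the family were 61.7% and 46.5%.

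Exonic Zfp circles joined a median of 3 exons (interquartile range 2 to 5), against 4 (3 to 6) in the rest. Circles of 2 to 4 exons made up 66.4% of Zfp circles and 57.8% of the others. Single-exon circles made up 6.16% (13 of 211) and 2.66%. These 13 include exon 2 of Zfp516, exons 2 and 3 of Zfp608, and exons 2 and 5 of Zfp827. Circles of 10 or more exons were 5.69% of Zfp circles and 6.83% of the rest, and the 12 such Zfp circles came from Zfp638 (5), Zfp280d (4), Zfp106 (2) and Zfp618 (1). The longest run was 19 exons, in a Zfp280d circle with 3 reads. These are descriptions of pooled circles, which share hosts and libraries and are not replicates.

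**Figure D1:**
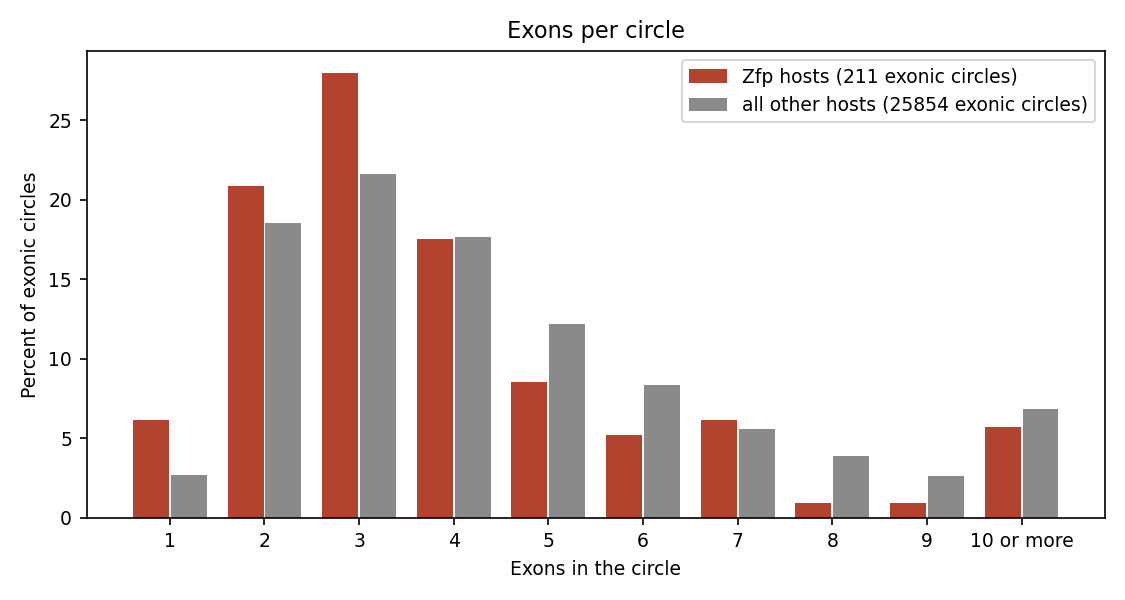
Percent of exonic circles (vertical axis) by the number of exons they join (horizontal axis), for the 211 circles of Zfp hosts and the 25854 of all other hosts. Zfp circles exceed the rest, for example, at 1 exon (6.16% against 2.66%) and at 3 exons (28.0% against 21.6%).

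Zfp circles joined fewer exons at the median but had the higher median length. The median spliced length of Zfp circles was 536.5 nt against 502 nt in the rest, and 26.7% of them exceeded 1000 nt against 14.7%. Exon 2 was the first exon of 37.6% against 23.0%, and the next to last exon was the end of 21.4% against 10.7%. The start codon lay inside 29.7% of Zfp circles with a coding transcript, against 10.2% of the others. Coding sequence alone made up 66.5% of Zfp circles and 88.9% of the rest. No Zfp circle with a matched length held the first or the last exon. Hosts of 51 other C2H2 genes (such as the Zbtb and Klf families) also had a median of 3 exons, began at exon 2 in 40.3% of circles and held the start codon in 24.5%, while 17.3% of their circles exceeded 1000 nt. These hosts had a median of 2 circles (mean 2.88), and 41.2% had a single circle. Single-exon circles made up 12.9% of their exonic circles, and 19.4% ended at the next to last exon. No test was made of these shares.

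Hosts were set against all annotated Zfp genes by class. GENCODE M21 lists 393 protein-coding Zfp genes besides Zfp609, and 77 of them (19.6%) hosted a circle. A pattern for the KRAB A box was found in 194 of the 393, of which 21 (10.8%) were hosts, against 56 of 199 (28.1%) without it. Near-identical KRAB genes can share reads, and the sources used here do not say how reads with several matches were counted. The 21 KRAB hosts held 37 circles and 16.0% of Zfp reads, and 4 of them (Zfp426, Zfp445, Zfp68 and Zfp141) were above 0 in at least 4 libraries. The other 17 included Zfp568, a repressor of a placental Igf2 transcript in mice, with 6 reads in total, and Zfp809, which silences murine retroviruses, with 2 reads.

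Fingers were then placed along the exons of these classes of host. They were counted as C2H2 patterns in the protein (a gap of 2 to 4 residues between the cysteines, 12 to the first histidine and 3 to 5 between the histidines). In KRAB hosts 236 of 243 fingers (97.1%) lay in the last exon, and in 20 of the 21 hosts every finger did. In the other hosts 97 of 473 fingers (20.5%) lay there. Of 34 circles matched to a KRAB isoform, 30 (88.2%) contained the whole KRAB pattern and 33 held no complete finger. Of the 175 other circles with a coding transcript, 88 (50.3%) held at least 1 complete finger. The most fingers in a circle were 24, in exons 3 to 5 of Zfp521, a 3618 nt circle with 1 read. Median length was 366 nt for circles of KRAB hosts and 649 nt for the others.

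The share of back-spliced reads in the family overlapped between the groups. Zfp circles held 1.33%, 0.894%, 1.55% and 1.34% of reads in TAC replicates 1 to 4 and 1.11%, 1.77%, 1.34% and 1.09% in sham replicates 1 to 4. The means were 1.28 ± 0.275% in TAC and 1.33 ± 0.314% in sham (SD, n = 4 each). The lowest and the highest share came from the shallow libraries, with 95% Wilson intervals of 0.486 to 1.64% in TAC replicate 2 (10 reads) and 1.40 to 2.23% in sham replicate 2 (70 reads). Such intervals take in counting error alone and not the spread between mice. They are too narrow if PCR copies of one molecule were counted as separate reads. Pooled over libraries, the share was 1.22% (3114 of 254236 reads).

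A few hosts carried most of the signal. Zfp827 alone made up 28.1% of the summed mean host levels, Zfp827, Zfp148, Zfp407 and Zfp292 together 61.2%, and the 12 most abundant hosts 84.7%. Zfp827 ranked 21 among all 6492 hosts and Zfp148 ranked 67. Zfp827 and Zfp292 were the 2 hosts seen in all 8 libraries. At the other end, 28 hosts were seen in 1 library, and 18 rested on a single read. Levels below set hosts side by side as junction reads, with no correction for length.

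**Figure D2:**
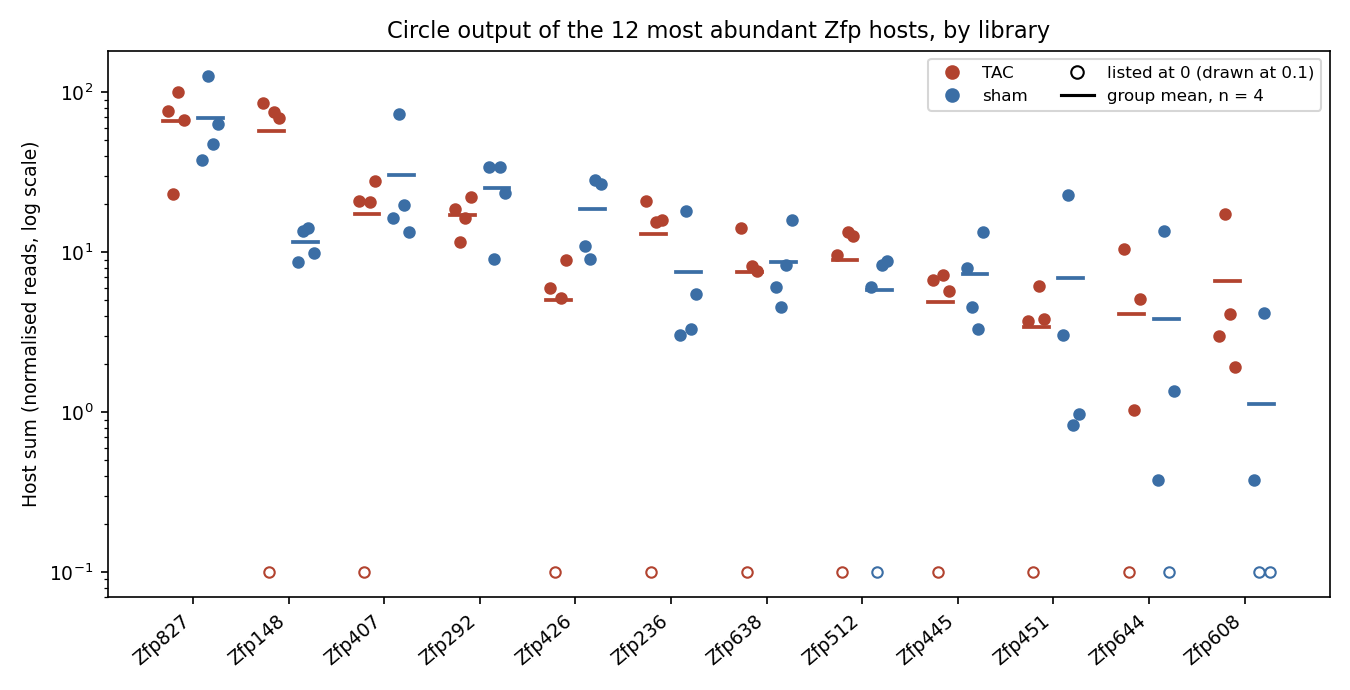
Host sums in normalised reads (vertical axis, log scale) for the 12 Zfp hosts with the largest means (horizontal axis), by library, with TAC left of sham and lines at the group means (n = 4 each). Open points mark libraries listed at 0, drawn at 0.1. Of the TAC points at 0, all are TAC replicate 2. The 3 deep TAC libraries of Zfp148 (69.3 to 86.3) lie above every sham library (8.72 to 14.1).

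Across the family, no host or circle passed the main test, limma on log2(value + 0.195) at a Benjamini-Hochberg adjusted p of 0.05. Of the 77 hosts, 26 were above 0 in at least 4 libraries and were tested, and 0 passed, against 0.0337% of all 2967 hosts tested. The unadjusted p was below 0.05 for 1 of the 26, against 3.03% of all hosts. Of the circles, 39 were tested and 0 passed, against 0.0268% of all 3735, with an unadjusted p below 0.05 for 2, against 4.07% of all. The median host log2 fold change, TAC over sham, was 0.14 over the 26 members (15 positive, 11 negative) and 0.13 over all hosts tested. With values rescaled by TMM the median over all hosts was -0.04 and that of the members was -0.06 (13 positive, 13 negative). Without TAC replicate 2 it was 0.92 over all hosts and 1.32 over the members (22 positive, 4 negative).

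On the recovered reads, the edgeR quasi-likelihood test kept 9 Zfp hosts and 10 Zfp circles and called some of them. Higher in TAC was 1 host, Zfp148 (3.33% of all 1020 hosts were called higher), and lower was 1 host, Zfp426 (4.9% of all). Higher were 2 circles, of Zfp148 and Zfp827 (8.51% of all 717 circles), and lower was 1, of Zfp426 (4.88% of all). In either direction that is 2 of 9 hosts against 8.24% of all and 3 of 10 circles against 13.4% of all, counts too small to set the family apart. The median edgeR host log2 fold change was -0.52 over the 9 members (3 positive, 6 negative) and -0.03 over all 1020 hosts. DESeq2 called 1 host and 1 circle higher, both of Zfp148. Over all features it called 0.337% of hosts and 0.562% of circles higher, and 0.944% of hosts and 0.91% of circles in either direction. Groups did not overlap for 1 of 26 hosts (Zfp426) and 2 of 39 circles (Zfp426 and exons 5 to 7 of Zfp407), against 3.24% of all hosts and 3.11% of all circles.

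Zfp148, also known as ZBP-89, is a transcription factor that binds GC-rich promoter elements, and its circles were higher in TAC in edgeR. Its host sums were 86.3, 0, 75.1 and 69.3 normalised reads in TAC replicates 1 to 4 and 8.72, 13.6, 14.1 and 9.92 in sham replicates 1 to 4. The 3 deep TAC libraries exceeded every sham library, and the shallow TAC replicate 2 had no Zfp148 read. With both shallow libraries left out, the groups did not overlap for 32.2% of all hosts tested. The means were 57.7 ± 39.1 in TAC and 11.6 ± 2.67 in sham (SD, n = 4 each). In edgeR the host log2 fold change was 2.05 ± 0.64 (SE, adjusted p = 0.0283), and in limma 0.58 ± 1.10 (adjusted p = 1.0). With limma without TAC replicate 2 it was 2.73 (adjusted p = 0.000922, with 0.998 to 0.999 when any other library was left out, where the value ran down to -0.20). The edgeR call of the host was lost without TAC replicate 1, 3 or 4 or sham replicate 1, 3 or 4 (1.94 to 2.28, adjusted p 0.0845 to 0.282).

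One Zfp148 circle, exons 2 to 4 of 9, made up most of the host's level. Its 567 nt comprise the start codon, 333 coding nt and 234 nt of 5′ UTR, and it holds none of the protein's 4 fingers. Its values were 74.4, 0, 65.9 and 57.2 normalised reads in TAC and 4.93, 13.6, 7.45 and 1.17 in sham. The edgeR log2 fold change was 3.13 ± 0.87 (adjusted p = 0.0111) and that of limma 1.56 ± 1.31 (adjusted p = 0.842). The edgeR call was lost without TAC replicate 1, 3 or 4 or sham replicate 1, 3 or 4 (2.57 to 3.28, adjusted p 0.0594 to 0.17) and kept without TAC replicate 2 or sham replicate 2. With each library's length trend taken out, the limma value was 0.89 ± 1.24 (adjusted p = 0.841).

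The share of the exons 2 to 4 circle in Zfp148 reads overlapped between the groups and was not tested. It made up 86.2%, 87.7% and 82.6% of Zfp148 reads in TAC replicates 1, 3 and 4, and 56.5%, 100% (3 of 3 reads), 52.9% and 11.8% in sham replicates 1 to 4. The 95% Wilson intervals were 78.8 to 91.3%, 78.2 to 93.4% and 74.4 to 88.5% in these TAC libraries and 36.8 to 74.4%, 43.9 to 100%, 31.0 to 73.8% and 5.51 to 23.4% in sham. The second circle, exons 5 to 7 (334 nt, with 2 fingers), had 3.72, 0, 3.09 and 1.91 normalised reads in TAC and 2.65, 0, 6.62 and 5.25 in sham, where the groups overlap. A longer circle of exons 2 to 7 (901 nt) had 3.72, 0, 3.09 and 3.82 in TAC and was listed at 0 in all sham libraries. It was above 0 in 3 libraries and so was not tested, and it was chosen for mention after its values were seen.

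**Figure D3:**
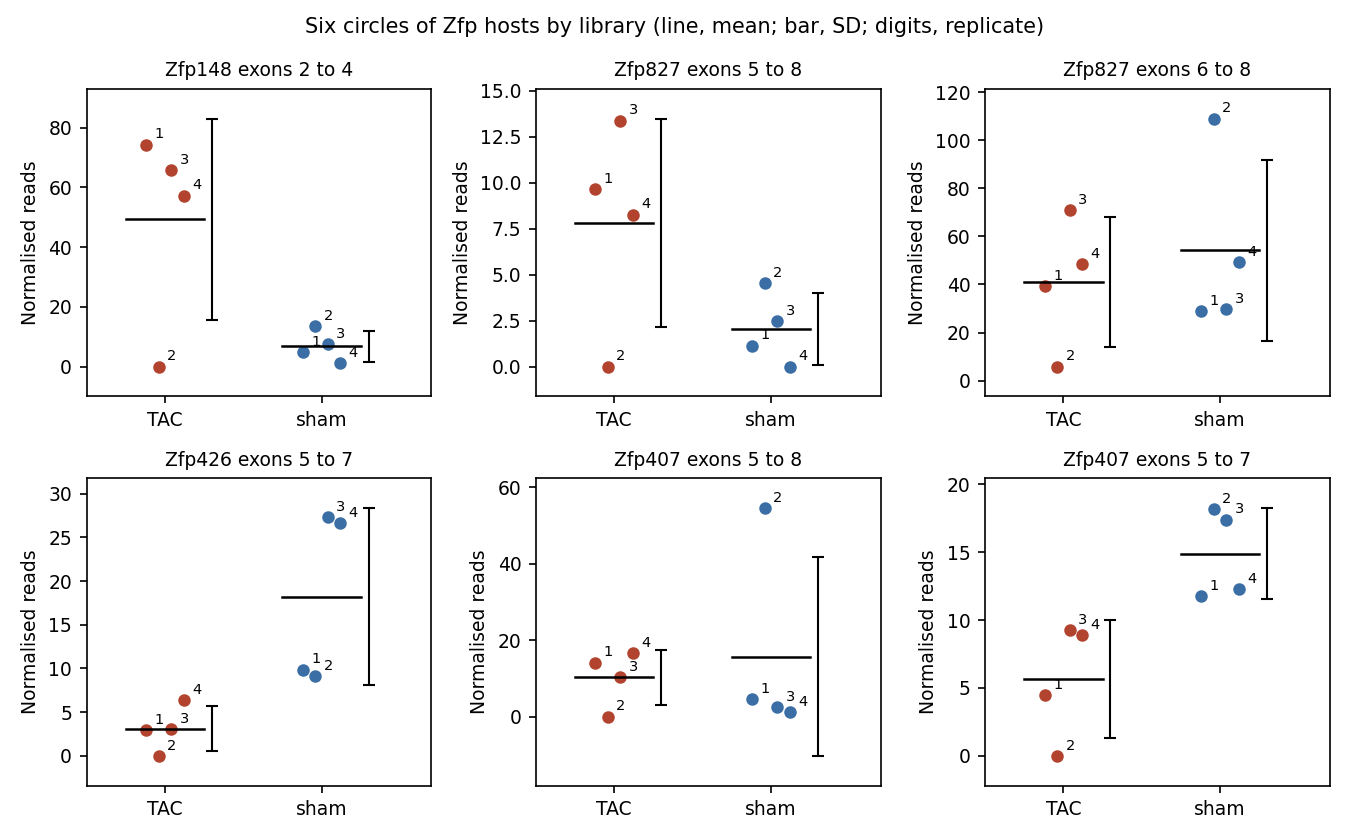
Normalised reads (vertical axes, linear, each panel on its own scale) of 6 circles by library, with TAC left of sham. Lines are means, bars beside them are SD (n = 4), and digits give the replicate. Exons 2 to 4 of Zfp148 reach 57.2 to 74.4 in TAC replicates 1, 3 and 4 and at most 13.6 in sham, while exons 5 to 7 of Zfp426 stay at or below 6.36 in TAC and at or above 9.09 in sham.

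Zfp827, whose human counterpart recruits the NuRD remodelling complex to telomeres, was the most abundant host, and its total did not differ between the groups beyond their spread. Host sums were 75.8, 23.1, 99.8 and 67.4 normalised reads in TAC and 37.5, 127, 47.2 and 63.0 in sham. The means were 66.5 ± 32.1 in TAC and 68.7 ± 40.4 in sham, with a limma log2 fold change of -0.07 ± 0.61 (adjusted p = 1.0). The sign turned without TAC replicate 2 (0.38) or sham replicate 2 (0.28). The main circle, exons 6 to 8 of 15 (402 nt, coding sequence alone, none of the protein's 9 fingers), made up 70.5% of the host's mean. It had 39.4, 5.77, 71.0 and 48.3 in TAC and 28.8, 109, 29.8 and 49.2 in sham, with a limma value of -0.63 ± 0.82 and an edgeR value of -0.22 ± 0.80 (adjusted p = 0.892).

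A circle that adds exon 5 to the same end was called higher in TAC in edgeR. The exons 5 to 8 circle (636 nt) had 9.67, 0, 13.4 and 8.27 normalised reads in TAC and 1.14, 4.54, 2.48 and 0 in sham. The 3 deep TAC libraries stood above all sham libraries. With both shallow libraries left out, the groups did not overlap for 34.6% of all circles tested. Its edgeR log2 fold change was 2.83 ± 0.90 (adjusted p = 0.0255) and its limma value 1.52 ± 1.60 (adjusted p = 0.897). The edgeR call was lost without TAC replicate 1, 3 or 4 or sham replicate 1, 3 or 4 (1.96 to 3.30, adjusted p 0.0703 to 0.271). With the length trend removed, the limma value was 0.72 ± 1.19 (adjusted p = 0.876). Exon 5 itself is 234 nt and coding, at chr8:79091833-79092066 on the plus strand, and it holds no complete finger. Its whole sequence, the part that sets these 2 circles apart, follows in lower case.
Zfp827 exon 5: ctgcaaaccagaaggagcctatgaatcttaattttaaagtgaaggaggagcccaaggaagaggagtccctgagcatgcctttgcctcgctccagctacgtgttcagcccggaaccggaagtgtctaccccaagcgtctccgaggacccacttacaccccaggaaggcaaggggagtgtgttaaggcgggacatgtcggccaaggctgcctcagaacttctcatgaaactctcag

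Within the reads of these 2 Zfp827 circles, the one that includes exon 5 held 19.7% (of 66 reads), 15.9% (of 82) and 14.6% (of 89) in TAC replicates 1, 3 and 4, and TAC replicate 2 had a single read, without exon 5. In sham replicates 1 to 4 it held 3.80% (of 79), 4.0% (of 25), 7.69% (of 39) and 0% (of 253, which allows up to 1.5% by the Wilson interval). The Wilson intervals were 11.9 to 30.8%, 9.51 to 25.3% and 8.74 to 23.4% in TAC replicates 1, 3 and 4 and 0 to 79.3% in TAC replicate 2. In sham replicates 1 to 4 they were 1.30 to 10.6%, 0.710 to 19.5%, 2.65 to 20.3% and 0 to 1.5%. The interval of sham replicate 4 lay below those of the 3 deep TAC libraries, and those of sham replicates 2 and 3 overlapped them. That of sham replicate 1 overlapped those of TAC replicates 3 and 4. Sham replicate 4 held 5600 different circles in 100142 reads, against 11550 in 36120 reads of TAC replicate 4. Its narrow interval takes every read as independent. No test of these shares between the groups was made. The remaining 11 circles of Zfp827 stayed below 6 normalised reads in both group means. They include exons 2 to 4 (1695 nt, 3 fingers), with 2.23, 0, 0 and 2.54 in TAC and 0, 13.6, 0.828 and 0 in sham.

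**Figure D4:**
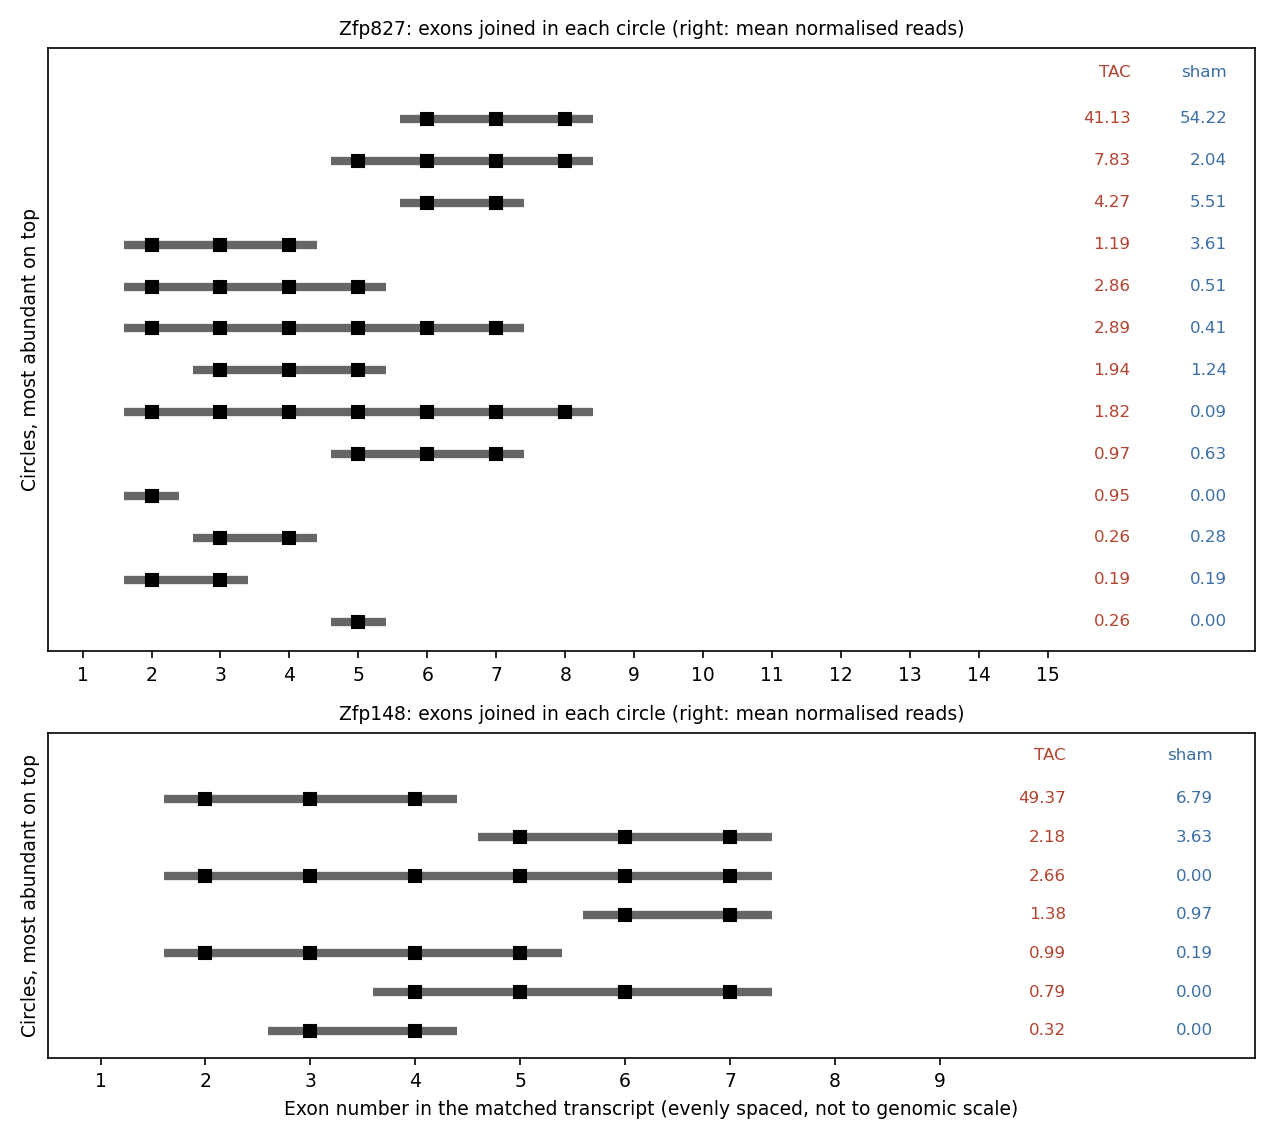
Exons joined in each circle of Zfp827 (13 circles, upper panel) and Zfp148 (7 circles, lower panel). The horizontal axis is the exon number of the matched transcript, evenly spaced, and each bar is a circle with a square per exon. Mean normalised reads in TAC and sham stand at the right (n = 4 each). The top Zfp827 circle, exons 6 to 8, averaged 41.1 in TAC and 54.2 in sham, and exons 5 to 8 averaged 7.83 and 2.04.

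Zfp407, a factor linked to insulin-stimulated glucose uptake in mouse fat cells, also made a pair of circles that share one end. Host sums were 20.8, 0, 20.6 and 28.0 normalised reads in TAC and 16.3, 72.7, 19.9 and 13.4 in sham, where the value of sham replicate 2 rests on 16 reads. The circle of exons 5 to 8 of 9 (551 nt, 5 of the protein's 22 fingers) had 14.1, 0, 10.3 and 16.5 in TAC and 4.55, 54.5, 2.48 and 1.17 in sham. Its limma value was -0.24 ± 1.48 (adjusted p = 0.997), which turned positive without TAC replicate 2 (1.29) or sham replicate 2 (0.86). The circle of exons 5 to 7 (372 nt, 4 fingers) had 4.46, 0, 9.26 and 8.90 in TAC and 11.8, 18.2, 17.4 and 12.3 in sham. Every sham library exceeded every TAC library for exons 5 to 7, but limma gave -2.32 ± 1.40 (adjusted p = 0.834) and edgeR -1.22 ± 0.75 (adjusted p = 0.287).

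Of the reads of this Zfp407 pair, the longer circle held 76.0%, 52.6% and 65.0% in TAC replicates 1, 3 and 4 (19 of 25, 10 of 19 and 26 of 40 reads). In sham replicates 1 to 4 it held 27.9%, 75%, 12.5% and 8.70% (12 of 43, 12 of 16, 3 of 24 and 6 of 69 reads). Sham replicate 2, a shallow library with long circles, lay among the TAC libraries. The Wilson intervals were 56.6 to 88.5%, 31.7 to 72.7% and 49.5 to 77.9% in TAC and 16.7 to 42.7%, 50.5 to 89.8%, 4.34 to 31.0% and 4.05 to 17.7% in sham.

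Zfp292, a large protein with 14 fingers by the pattern, made a single circle and was the most even member. Exons 2 to 4 of 8 (370 nt, coding, no finger) gave 18.6, 11.5, 16.5 and 22.3 normalised reads in TAC and 34.1, 9.09, 33.9 and 23.3 in sham. The means were 17.2 ± 4.47 in TAC and 25.1 ± 11.8 in sham, with a limma log2 fold change of -0.41 ± 1.04 (adjusted p = 0.977). The groups overlap.

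Zfp236, with 30 fingers by the pattern, and Zfp516, which activates Ucp1 in mouse brown fat, were also higher in the deeper TAC libraries, with no call over all 8. Host sums of Zfp236 were 20.8, 0, 15.4 and 15.9 normalised reads in TAC and 3.03, 18.2, 3.31 and 5.45 in sham. Its limma value of -0.05 ± 1.41 (adjusted p = 1.0) rests on opposite extremes in the shallow libraries, with 0 reads in TAC replicate 2 and 4 in sham replicate 2. It was 1.57 without TAC replicate 2 and 0.50 without sham replicate 2. The main Zfp236 circle joins exons 2 to 6 (785 nt, 8 fingers) and had 11.2, 0, 6.18 and 8.90 in TAC and 1.14, 13.6, 0.828 and 5.45 in sham. Host sums of Zfp516 were 3.72, 0, 8.23 and 7.63 in TAC and 0.379, 0, 0 and 0 in sham, that is 1 read in all sham libraries together. Zfp516 was the tested host with the smallest p of the family (limma 3.38 ± 1.43, unadjusted p = 0.018, adjusted p = 1.0). Its chief circle is exon 2 alone, 1926 nt with the start codon and 8 of the protein's 10 fingers. The limma value of this circle was 3.14 ± 1.43 (adjusted p = 0.834), and 1.44 ± 0.98 with the length trend removed (adjusted p = 0.649).

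Among KRAB hosts, Zfp426 was lower in TAC in edgeR. Host sums were 5.95, 0, 5.15 and 8.90 normalised reads in TAC and 11.0, 9.09, 28.2 and 26.7 in sham, so the groups did not overlap. The lowest sham value, 9.09 in the shallow sham replicate 2, rests on 2 reads and lies just above the highest TAC value. The means were 5.0 ± 3.70 in TAC and 18.7 ± 10.1 in sham. The edgeR log2 fold change was -2.11 ± 0.66 (adjusted p = 0.0283), and limma gave -2.60 ± 1.36 (adjusted p = 1.0). Exons 5 to 7 of 9 (291 nt) hold the KRAB pattern and no finger, and had 2.97, 0, 3.09 and 6.36 in TAC and 9.86, 9.09, 27.3 and 26.7 in sham. For this circle edgeR gave -2.45 ± 0.82 (adjusted p = 0.0298) and limma -3.09 ± 1.45 (adjusted p = 0.834). With the length trend removed the limma value was -2.54 ± 1.04 (adjusted p = 0.51). The edgeR call of the circle was lost without TAC replicate 1, 3 or 4 or sham replicate 3 or 4 (-2.88 to -2.24, adjusted p 0.0575 to 0.322). The host's call was lost without the same libraries (-2.29 to -1.78, adjusted p 0.0676 to 0.364).

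The other KRAB hosts were lower in level and were not called. Zfp445, which maintains genomic imprints in mice, had host sums of 6.69, 0, 7.21 and 5.72 normalised reads in TAC and 7.96, 4.54, 3.31 and 13.4 in sham. It made 5 circles, of which exons 3 to 5 (355 nt) and exons 4 to 5 (186 nt) held 48.4% and 45.1% of its mean. Zfp141 made one circle, exons 3 to 5 (476 nt, with the start codon and the KRAB pattern), at 2.23, 0, 1.03 and 3.82 in TAC and 3.41, 0, 0.828 and 2.92 in sham. Zfp68 was mostly a ciRNA, at chr5:138616566-138617054 on the minus strand, with 2.97, 0, 1.03 and 1.91 in TAC and 6.07, 0, 0 and 4.09 in sham. It was the most abundant of the 11 ciRNAs of the family, with 45 reads. The next, of Zfp263, had 11 reads, all in sham replicate 4.

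Members with RNA-binding or mitotic roles include Zfp638, Zfp106, Zfp207 and Zfp326. Zfp638, whose human counterpart NP220 silences unintegrated retroviral DNA with the HUSH complex, had host sums of 14.1, 0, 8.23 and 7.63 normalised reads in TAC and 6.07, 4.54, 8.28 and 16.0 in sham. No circle held more than 18% of its mean. Exons 16 to 19 (429 nt) had 0, 0, 0 and 1.27 in TAC and 3.03, 0, 2.48 and 4.86 in sham, and exons 3 to 20 (18 exons, 1907 nt) had 1.49, 0, 1.03 and 0 in TAC and 0.379, 4.54, 1.66 and 1.95 in sham. Zfp106, an RNA-binding protein needed by motor neurons in mice, made 7 circles from 9 reads, with host sums of 2.23, 0, 1.03 and 0 in TAC and 0.758, 0, 2.48 and 0 in sham. Zfp207 (BuGZ), a Bub3 partner at the kinetochore, made 8 circles from 22 reads, with 1.49, 0, 2.06 and 5.09 in TAC and 2.28, 0, 3.31 and 0 in sham. Zfp326, in human cells part of the DBIRD complex that couples transcription to splicing, made 2 circles from 7 reads, with 0.744, 0, 2.06 and 1.91 in TAC and 0, 0, 0.828 and 0 in sham. None of these hosts passed a test.

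The remaining abundant hosts were spread across other roles and did not pass either. Zfp512 came nearly whole (96.4% of its mean) from exons 4 to 7 (401 nt, 1 finger), with 8.18, 0, 13.4 and 12.1 normalised reads in TAC and 6.07, 0, 8.28 and 8.75 in sham. Zfp451, a SUMO ligase in human cells, had host sums of 3.72, 0, 6.18 and 3.82 in TAC and 3.03, 22.7, 0.828 and 0.973 in sham, and Zfp644, in human cells a partner of the H3K9 methyltransferases G9a and GLP, 10.4, 0, 1.03 and 5.09 in TAC and 0.379, 13.6, 0 and 1.36 in sham. Zfp608, which represses Rag genes in mouse thymocytes, was 1 of 4 members seen in TAC replicate 2, with 2.97, 17.3, 4.12 and 1.91 in TAC and 0.379, 0, 4.14 and 0 in sham. Zfp280d spread 55 reads over 14 circles, with 3.72, 0, 4.12 and 6.36 in TAC and 2.65, 0, 2.48 and 5.06 in sham. Zfp385b stood at 2.23, 0, 10.3 and 2.54 in TAC and 1.90, 0, 0.828 and 0 in sham, and Zfp131, a BTB zinc finger protein, at 0.744, 0, 0 and 1.27 in TAC and 0.379, 9.09, 0 and 3.50 in sham. Zfp521, a partner of early B cell factor proteins, had 0, 0, 4.12 and 0.636 in TAC and 2.65, 0, 0.828 and 0.195 in sham. Zfp362, named after its values were seen, had 2.23, 0, 7.21 and 5.72 in TAC and was listed at 0 in all sham libraries. It was above 0 in 3 libraries and was not tested.

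Circle length was set against the fold changes as a description. Over the 38 tested Zfp circles with a length, Spearman's rho between spliced length and the limma log2 fold change was 0.32, and over all 3694 tested circles it was 0.43. These correlations are across circles, which share the 8 libraries and are not independent. The median Zfp read came from a circle of 567, 370, 466 and 551 nt in TAC replicates 1 to 4 and 372, 496, 372 and 372 nt in sham replicates 1 to 4. In both groups the shallow library lay outside the range of the other libraries of its group. With the length trend removed in limma, 0 Zfp circles passed.

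**Figure D5:**
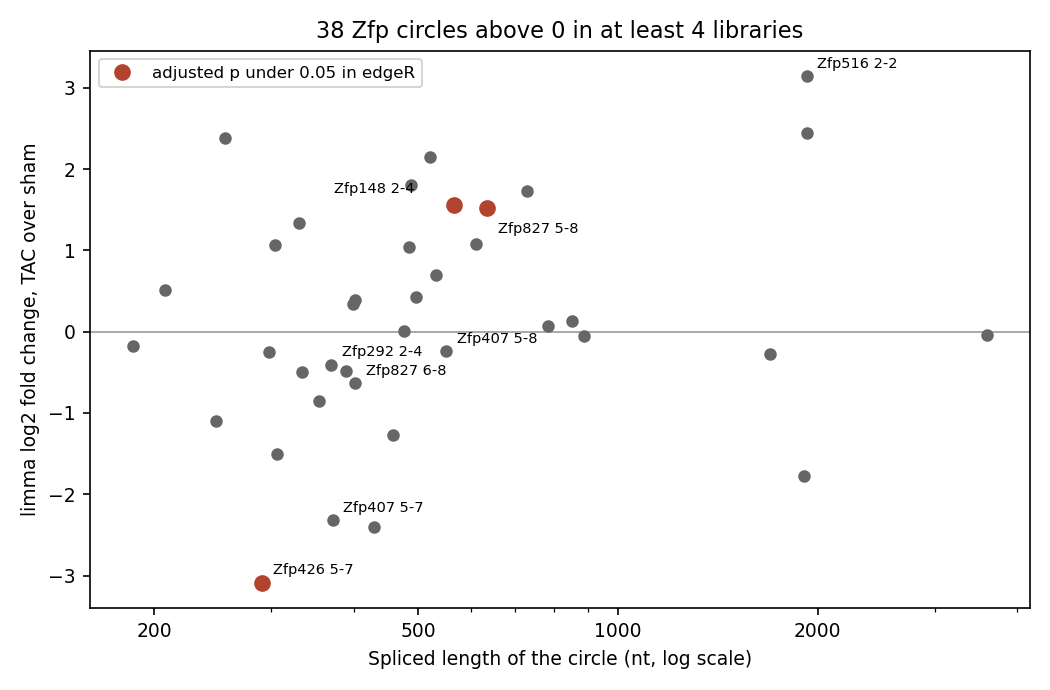
limma log2 fold change, TAC over sham (vertical axis), against spliced length in nt (horizontal axis, log scale) for 38 Zfp circles above 0 in at least 4 libraries. Coloured points are the 3 circles past an adjusted p of 0.05 in edgeR, and the rank correlation over the points is 0.32.

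Without the libraries under 5000 reads (TAC replicate 2 and sham replicate 2), 3 mice per group were left and more features passed throughout the table. limma then called 5 of 26 Zfp hosts, 4 higher and 1 lower, against 12.4% of all hosts (9.82% higher and 2.57% lower). It called 6 of 37 Zfp circles, 5 higher and 1 lower, against 11.6% of all circles (8.13% higher and 3.52% lower). Higher in TAC were the hosts Zfp516 (4.51), Zfp280c (3.50), Zfp148 (2.82) and Zfp236 (2.12), and lower was Zfp426 (-1.61), all as limma log2 fold changes. The median over all hosts in this fit was 0.61 and that of the members was 0.67, so these values stand against a general shift to TAC. The circles called were exons 2 to 4 of Zfp148 (4.12), exons 5 to 8 of Zfp827 (3.56), exons 5 to 8 of Zfp407 (2.39), exon 2 of Zfp516 (4.19), exons 2 to 6 of Zfp236 (2.14) and, as the one lower, exons 5 to 7 of Zfp426 (-2.26). Host sums of Zfp280c, named for this call, were 5.95, 0, 4.12 and 2.54 normalised reads in TAC and 1.14, 4.54, 0 and 0 in sham. edgeR on the same 6 libraries called 5 of 14 hosts, 3 higher and 2 lower, against 21.3% of all (10.7% in each direction). It added Zfp292 as lower (-1.10 ± 0.35, adjusted p = 0.034), and its filter did not keep Zfp280c, which it therefore did not test. The groups of 3 did not overlap for 11 of 26 Zfp hosts and 13 of 39 Zfp circles, against 32.2% of all hosts and 34.6% of all circles.

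Genes of the pathway in which KRAB proteins act were counted as hosts in the same way. Of 25 KAP1 corepressor genes, 19 hosted circles and 9 were tested, with 4 positive and 5 negative limma values and a median of -0.33, against 0.13 over all hosts. None passed in limma, with 1 at an unadjusted p below 0.05, and none of the 3 that edgeR kept passed. The edgeR median over those 3 was 0.63, of the opposite sign, against -0.03 over all hosts that edgeR kept. Trim28 (KAP1) itself had 1 circle and a single read, in sham replicate 1, and the H3K9 methyltransferase gene Setdb1 had host sums of 0, 0, 1.03 and 0.636 normalised reads in TAC and 0.379, 0, 1.66 and 1.17 in sham. Of 21 genes of the HUSH complex and H3K9 methylation, 14 hosted circles and 9 were tested, with 3 positive and 6 negative values and a median of -1.12. None passed in limma, with 1 at an unadjusted p below 0.05. In edgeR the median over the 6 it kept was -0.02, against -0.03 over all hosts it kept. Of these 6 hosts 1 passed, against 8.24% of all hosts: Morc3, a GHKL ATPase that silences repeats. It had 9.67, 11.5, 5.15 and 6.36 in TAC and 33.0, 4.54, 29.0 and 41.2 in sham, with an edgeR log2 fold change of -2.39 ± 0.69 (adjusted p = 0.0171).

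Among the 51 other C2H2 hosts, 28 were tested, with 20 positive and 8 negative limma values and a median of 0.68. None passed in limma, with 2 at an unadjusted p below 0.05 (3.03% of all hosts), and edgeR called 2 of the 9 it kept, against 8.24% of all hosts. The edgeR median over those 9 was 0.18, against -0.03 over all hosts that edgeR kept. Zbtb16 (PLZF), a BTB zinc finger factor, had 25.3, 11.5, 20.6 and 19.7 normalised reads in TAC and 1.52, 4.54, 0.828 and 1.36 in sham, and every TAC library exceeded every sham library. It was higher in TAC in edgeR (3.35 ± 0.72, adjusted p = 0.000712), with 3.31 ± 1.40 in limma (adjusted p = 1.0). Zbtb48, which binds telomeres in human cells, was lower (-2.69 ± 0.88 in edgeR, adjusted p = 0.0327), at 0.744, 11.5, 0 and 0.636 in TAC and 4.93, 9.09, 4.97 and 5.84 in sham.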

How the data were processed

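circRNAs were sequenced from 8 mouse hearts, 4 TAC and 4 sham, and counted by their back-spliced reads. Per the submitters' processing notes the build was mm10 and the tools were HISAT2, StringTie and DESeq2. The sources used here do not name the circRNA caller, the strand or the treatment of reads with several matches. The deposited values (unit signal) are the authors' back-spliced reads divided by 1 size factor per library. This follows from the values, of which 100% were whole multiples of 1 read (tolerance 0.001), and whole reads were recovered. Depth ran from 1119 to 100142 reads.

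Host sums add all circles of a gene. The main test was limma 3.58.1 with an intensity trend on log2(value + 0.195), for features above 0 in at least 4 libraries. In the main fits its SE followed that trend, not the spread of single features. In the host fits without TAC replicate 2 or without both shallow libraries, the spread of single features also entered. Fold changes are on that scale, which can understate or enlarge changes of low features. For the Zfp516 host limma gave 3.38 and DESeq2 4.32, and for the Zfp608 host limma gave 3.10 and DESeq2 2.01. Alternatives were the edgeR 4.0.16 quasi-likelihood test on recovered reads (TMM, minimum count 5, minimum total 15), DESeq2 1.42.0 and those in the closing section. The SE beside an edgeR fold change was derived from that fold change and the F statistic of its test. All were fitted on the whole table with Benjamini-Hochberg adjustment at 0.05. Members and lists were chosen with earlier results of these data known. Named hosts are the 12 with the largest means, the 5 with most circles, every call, the smallest p per direction, and hosts of ciRNAs and of the longest circles.

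Replicates are separate mice. Starts in the table count from 0 and were raised by 1, after which 95.1% of all circles, ciRNAs included, started at an exon boundary. Lengths, exons, sequences and proteins come from GENCODE M21 transcripts, which gave a length for 94.9% of all circles. Length trends were removed by loess (span 0.5). Scripts were tested on simulated data. R 4.3.3 and Python 3.11.15 were used.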

Additional observations from a re-analysis of the deposited data

Results flagged for a closer look

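Of 70 checks on groups of 4 values, 12 found a library whose gap to the others exceeded Dixon's 95% critical value for 4 samples. The groups of some circles were checked more than once, so the distinct groups were fewer than 70. For normally distributed values chance gives about 1 in 20, a rate that does not hold for counts with many zeros. For Zfp516, Zfp326, Zfp263 and Zfp414 the other 3 libraries of the group were at 0, so that any value above 0, even 1 read, exceeds the critical value. In sham replicate 2 (1 read is worth 4.54 normalised reads), the host sums of Zfp407 (72.7), Zfp236 (18.2), Zfp451 (22.7) and Zfp644 (13.6) and the exons 5 to 8 circle of Zfp407 (54.5) lay above the other sham libraries. In TAC replicate 2, Zfp608 (17.3, 3 reads) lay above the other TAC libraries. In sham replicate 3, Zfp608 (4.14), Zfp326 (0.828) and Zfp414 (1.66) stood apart, each on 5 reads or fewer. In TAC replicate 3 Zfp521 stood at 4.12, and in sham replicate 4 Zfp263 stood at 2.14. In sham replicate 1 Zfp516 stood at 0.379, its single sham read.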

How the results depend on the processing

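The limma count of 0 Zfp circles became 3 with edgeR, 1 with DESeq2 and 6 without the libraries under 5000 reads, and ran from 0 to 1 when each library was left out. The count of 0 hosts became 2 with edgeR, 1 with DESeq2 and 5 without the libraries under 5000 reads, and ran from 0 to 1 when each library was left out. With a pseudocount of 1, values rescaled by TMM, no filter, and 10 reads in 4 libraries, both counts were 0. The edgeR count of 3 circles became 0 without its expression filter and ran from 0 to 3 when each library was left out. The edgeR count of 2 hosts became 1 without the filter and 5 without the libraries under 5000 reads, and ran from 0 to 3 when each library was left out. The host called without the filter was neither Zfp148 (edgeR adjusted p = 0.227) nor Zfp426 (edgeR adjusted p = 0.188), which both lost their call. The cause of these changes was not tested. Leaving libraries out also lowers the number of samples, and dropping a filter enlarges the set of features tested. The share of reads in TAC, 1.28%, was 0.957% as a share of different circles and 0.922% without the most abundant host, and that in sham, 1.33%, was 0.940% and 0.928%.

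Among the fold changes in the report, signs turned without the libraries under 5000 reads for these: the limma log2 fold change was 0.73 for the Zfp827 host, 2.12 for the Zfp236 host, 0.56 for exons 6 to 8 of Zfp827 (0.29 in edgeR) and 2.39 for exons 5 to 8 of Zfp407. The Zfp236 host was also positive with edgeR (1.19), DESeq2 (1.13) and a pseudocount of 1 (0.37), and exons 5 to 8 of Zfp407 with edgeR (0.44) and a pseudocount of 1 (0.091). With each library left out, limma ran from -0.32 to 0.38 for the Zfp827 host, -0.20 to 2.73 for the Zfp148 host, -0.68 to 1.57 for the Zfp236 host, -1.05 to 0.15 for exons 6 to 8 of Zfp827 (-0.63 to 0.13 in edgeR) and -0.91 to 1.29 for exons 5 to 8 of Zfp407. No paired analysis was possible because the replicate numbers follow accession order and pair no mice. Depth limits TAC replicate 2 most: its 1119 reads held 10 Zfp reads, and 3 reads would be 0.268% of that library.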
